A study of Homo sapiens with 6 samples.

Results

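The 10 genes described here are well known transcription factors and adhesion markers of the epithelial-mesenchymal transition (EMT). They are SNAI1, SNAI2, ZEB1, ZEB2, TWIST1, TWIST2, CDH1, CDH2, VIM and FN1, taken by symbol from a table of 44591 genes, and all 10 were listed once in each library. The libraries came from A2780, a human ovarian cancer cell line labelled wild type and grown in DMEM with fetal bovine serum. The untreated group held 3 libraries collected at 48 h. The r-CRMP2 group held 3 libraries of cells given 40 ng/ml recombinant human CRMP2 in the medium for 48 h. CRMP2 is a microtubule-associated protein that the study found in the medium of fibroblasts from ovarian tumors. Polyadenylated RNA was sequenced, and the reads per gene were deposited without normalization. All 6 libraries are of a single cell line, and the labels do not say whether replicates were separate cultures, so each p-value measures the spread between these libraries only.

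In EMT, epithelial cells give up their cell-cell junctions and take on the shape, matrix and motility of mesenchymal cells. The zinc finger proteins of the SNAI and ZEB families and the basic helix-loop-helix proteins of the TWIST family drive it, in part by repressing CDH1. The SNAI and ZEB proteins bind E-boxes of the form CAGGTG, read as CACCTG on the other strand. CDH1 encodes E-cadherin, the calcium-dependent adhesion protein of epithelial junctions, and CDH2 encodes N-cadherin, which is typical of neural and mesenchymal cells. VIM encodes the intermediate filament vimentin, and FN1 encodes fibronectin, a glycoprotein of the extracellular matrix. The ZEB factors and the microRNAs of the miR-200 family repress each other. Ovarian cancer cell lines often hold epithelial and mesenchymal markers together.

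After r-CRMP2, 7 of the 9 genes that could be tested were higher, and none was lower. In bulk RNA, a change per cell and a change in the share of cells that hold the RNA cannot be told apart. FN1 (3.13-fold), SNAI2 (2.77-fold), SNAI1 (1.81-fold) and VIM (1.79-fold) rose most. TWIST1 (1.50-fold) and ZEB1 (1.46-fold) rose less, and CDH2 (1.16-fold) was called on a small difference. ZEB2 and TWIST2 did not pass the test. CDH1 had at most 5 reads in any library and was not tested. These calls are from edgeR's quasi-likelihood test over 16222 genes, with TMM scaling (which sets the libraries to a common level on the bulk of the genes) and Benjamini-Hochberg adjusted p under 0.05. Many genes of the cell passed the same test: 28.2% of all genes tested were higher and 30.1% were lower. With a log2 fold change over 1 asked as well, 5.12% of all genes tested were higher and 8.86% lower, and of the 10 genes only FN1 and SNAI2 passed. No member had fewer than 81 reads in a library except CDH1.

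The libraries held between 21888530 and 25711353 counts. The TMM factors were between 1.10 and 1.12 in the untreated libraries and between 0.878 and 0.922 in the r-CRMP2 libraries, so the scaling moves every fold change. The median log2 fold change of all genes tested was -0.03 with TMM and -0.34 when libraries were scaled by their total alone. The calls of all genes were split into 48.4% higher with TMM and 20.4% higher with library totals alone. In r-CRMP2 replicate 3, 22438 genes had a read, against 25152 to 26302 in the other libraries, and leaving that library out changed the call of none of the 9 genes. The label of an ovarian epithelial cancer was set against 13 lineage markers, not all of which are named here. Of the 13, 8 were tested, with 2 higher and 2 lower, where 28.2% of all genes tested were higher and 30.1% lower. The keratins KRT7, KRT8 and KRT18 were at mean TPM (reads corrected for gene length and scaled to the same total in each library) of 952, 1362 and 1986 in untreated cells, and mesothelin (MSLN) was at 272. EPCAM was at 6.30 TPM in untreated cells. The ovarian lineage factor PAX8 was at 2.44 TPM, and WT1, ESR1, SOX17, EMX2 and CDH1 itself were all under 0.07 TPM.

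**Figure D1:**
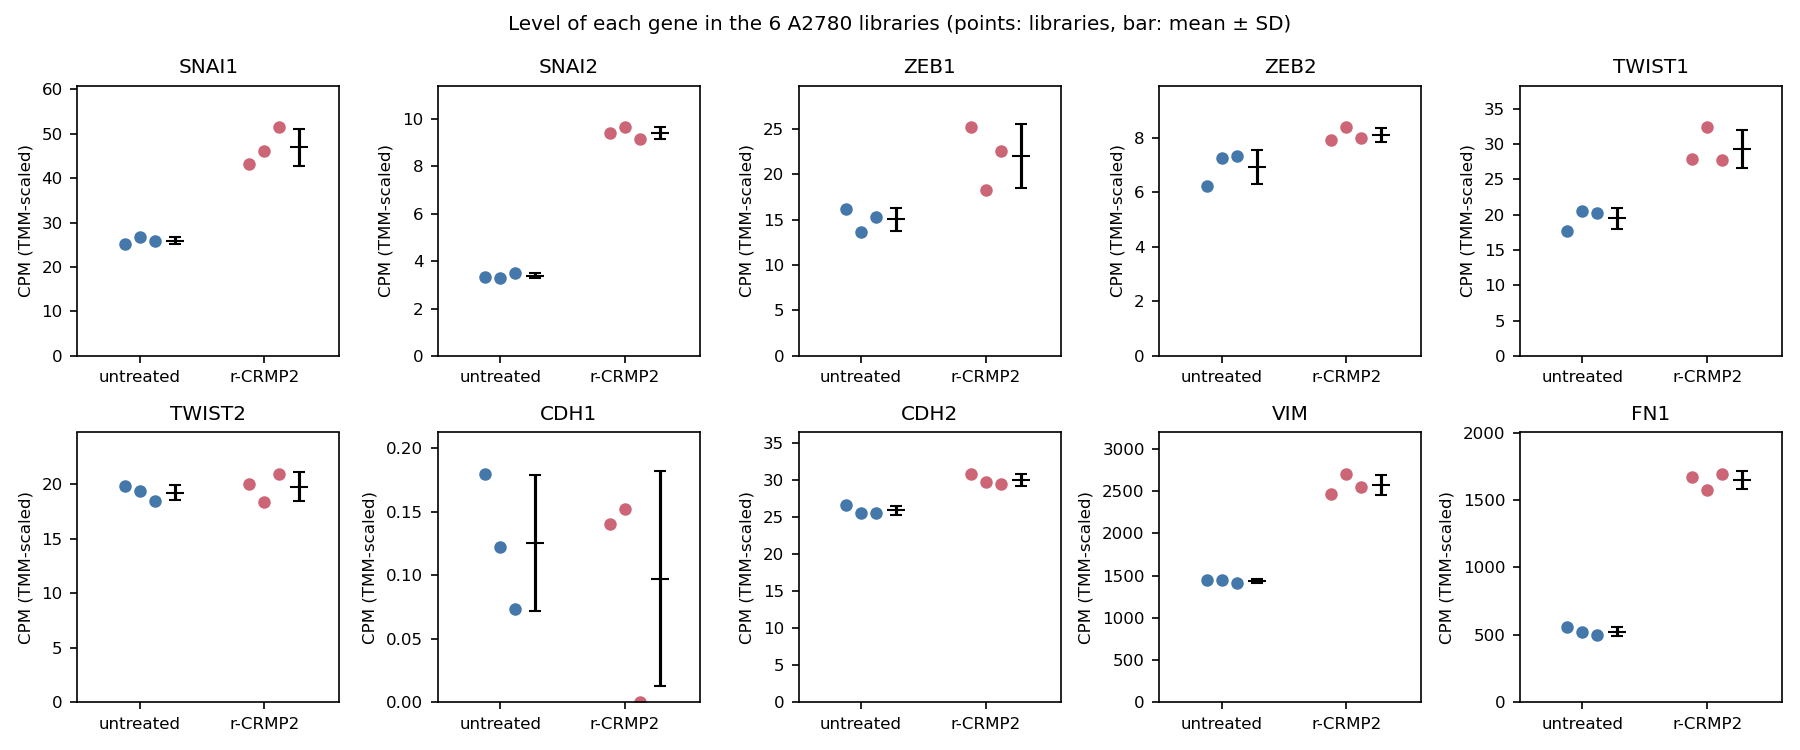
Each panel shows 1 gene, with its level in CPM (TMM-scaled reads relative to library size) on an axis that starts at 0, a point for each of the 3 untreated and 3 r-CRMP2 libraries, and a bar for the mean ± SD. The r-CRMP2 points lie above all untreated points in every panel except TWIST2 and CDH1, and the gap is widest for FN1 and SNAI2. Calls are common in these data, with 28.2% of all genes tested called higher and 30.1% called lower. A call is a different measure from separation: ZEB2 was separated and was not called. The share of all genes whose groups do not overlap was not counted.

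The SNAI zinc finger repressors both rose. SNAI1 (Snail; chromosome 20, 48599513 to 48605423, plus strand, hg19) was at 25.1, 26.7 and 25.9 CPM in untreated replicates 1 to 3 and at 43.3, 46.2 and 51.5 CPM in the r-CRMP2 replicates. The groups did not overlap, and how many of all genes separate in this way was not counted. Its level rose from 25.9 ± 0.800 to 47.0 ± 4.17 CPM (SD, n = 3 each), a log2 fold change of 0.86 with an SE of 0.08 and an edgeR adjusted p of 2.74e-08. SNAI2 (Slug; chromosome 8, 49830236 to 49833999, minus strand, hg19) was at 3.34, 3.30 and 3.51 CPM in untreated cells, from 93, 81 and 96 reads. It was at 9.41, 9.66 and 9.14 CPM after r-CRMP2, from 201, 191 and 210 reads. All 3 treated libraries lay far above the untreated ones, and the spread within each group was small. The log2 fold change of SNAI2 was 1.47 with an SE of 0.03, at an edgeR adjusted p of 3.00e-08. Each SE in this text is from the spread of log2 CPM over 3 libraries a group. It is not the error of the edgeR fit, so a small SE need not go with a small p. SNAI2 thus had the larger fold change of the pair while SNAI1 kept the higher level per gene length: 37.0 TPM for SNAI1 against 3.91 for SNAI2 in untreated cells, and 53.4 against 8.65 after r-CRMP2. The remaining relative of the family, SNAI3, was at 0.779 TPM in untreated cells and 1.09 TPM in r-CRMP2 cells and did not pass (log2 fold change 0.79, edgeR adjusted p 0.0790).

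The ZEB genes, which encode larger repressors with a zinc finger cluster at each end, differed from each other in their calls. ZEB1 (chromosome 10, 31607424 to 31818742, plus strand, hg19) was at 16.1, 13.7 and 15.3 CPM in untreated cells and 25.2, 18.2 and 22.5 CPM in r-CRMP2 cells. The treated libraries were all higher, but r-CRMP2 replicate 2 came close to the untreated range. ZEB1 rose from 15.04 ± 1.27 to 22.0 ± 3.50 CPM (SD, n = 3 each), with a log2 fold change of 0.55, an SE of 0.15 and an edgeR adjusted p of 0.000279. With library totals alone its log2 fold change was 0.24 and the edgeR adjusted p was 0.0842, so the call depends on the scaling. ZEB2 (chromosome 2, 145141942 to 145277958, minus strand, hg19) was at 6.22, 7.25 and 7.35 CPM in untreated cells and 7.91, 8.39 and 8.01 CPM in r-CRMP2 cells. The groups did not overlap, yet the gap was small: the log2 fold change was 0.22 with an SE of 0.08 and an edgeR adjusted p of 0.143, and it was -0.09 with library totals alone. The difference between the paralogs was read within each library, where no scaling enters. The mean log2 ratio of ZEB1 to ZEB2 reads was 1.12 ± 0.237 in untreated and 1.43 ± 0.280 in r-CRMP2 libraries (SD, n = 3 each). That difference of 0.31 gave p = 0.2 in a two-sided exact permutation test, whose smallest possible p with 3 against 3 libraries is 0.1. The ratios overlapped between the groups, and a test of this size could not have passed 0.05.

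Start-site sequence was read for those members that the RefSeq promoter table holds on assembly GRCh38.p14, namely ZEB1, ZEB2, TWIST2, VIM, FN1 and CDH2. SNAI1, SNAI2, TWIST1 and CDH1 were not matched. The window was the 250 bases before each listed start. ZEB1 has 7 listed starts, and the window printed is the one with the most matches to CAGGTG or CACCTG, shown because these are the letters the SNAI and ZEB proteins read. The capitals mark both matches, each of which is also a match to the general E-box CANNTG (either strand, since that motif is its own reverse complement). It lies on the plus strand at chr10:31318966-31319215.
ZEB1 start window: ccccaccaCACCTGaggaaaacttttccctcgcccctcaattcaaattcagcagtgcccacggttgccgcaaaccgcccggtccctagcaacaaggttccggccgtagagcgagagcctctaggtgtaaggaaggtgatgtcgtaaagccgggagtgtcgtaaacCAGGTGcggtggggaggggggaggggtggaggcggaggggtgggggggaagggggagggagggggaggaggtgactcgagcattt

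Of 35114 windows of this length, 17.5% held CAGGTG or CACCTG and 61.8% held CANNTG, so such letters are common. These shares are per window, while the ZEB1 window was picked for its matches. Another ZEB1 window held 1 match to CAGGTG or CACCTG, and the remaining ZEB1 windows held none. None was found in the windows of ZEB2, TWIST2 and CDH2 either. The matches are a description of the sequence, and no binding was measured.

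The TWIST genes, which encode basic helix-loop-helix factors, stood at about the same level in untreated cells and apart after r-CRMP2. TWIST1 (chromosome 7, 19155091 to 19157295, minus strand, hg19) was at 17.8, 20.5 and 20.2 CPM in untreated and 27.9, 32.4 and 27.7 CPM in r-CRMP2 cells. The groups were well separated. Its mean rose from 19.5 ± 1.50 to 29.3 ± 2.68 CPM (SD, n = 3 each), a log2 fold change of 0.59 with an SE of 0.10 and an edgeR adjusted p of 1.50e-05. The call also held with library totals alone, where the log2 fold change was 0.28 and the edgeR adjusted p 0.0146. TWIST2 (chromosome 2, 239756673 to 239832244, plus strand, hg19) was at 19.8, 19.4 and 18.4 CPM in untreated and 19.99, 18.4 and 20.9 CPM in r-CRMP2 cells. The groups overlapped. The log2 fold change of TWIST2 was 0.04 with an SE of 0.06 (edgeR adjusted p 0.697), and with library totals alone it turned to -0.27 and was called lower (edgeR adjusted p 0.0170), though that value is still above the median of all genes under the same scaling. Within a library, the ratio of TWIST1 to TWIST2 in TPM was 0.849, 0.999 and 1.04 in untreated replicates and 1.32, 1.67 and 1.25 in r-CRMP2 replicates. TWIST1 thus exceeded TWIST2 in each r-CRMP2 library and in 1 of 3 untreated libraries. This ratio was chosen after the values were seen and was not tested.

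Of the cadherins, E-cadherin RNA was close to absent before treatment and N-cadherin RNA was present. CDH1 (chromosome 16, 68771193 to 68869445, plus strand, hg19) had 5, 3 and 2 reads in the untreated libraries and 3, 3 and 0 reads in the r-CRMP2 libraries. Both groups were near the floor of detection. Over all 3 libraries, this came to 10 reads in untreated cells, with an exact 95% Poisson interval of 4.80 to 18.4, and to 6 reads after r-CRMP2, with an interval of 2.20 to 13.1. The intervals overlap and cover counting error only. A fall of CDH1 was not detectable at this depth. CDH2 (chromosome 18, 25530927 to 25757410, minus strand, hg19) was at 26.6, 25.6 and 25.6 CPM in untreated and 30.8, 29.7 and 29.4 CPM in r-CRMP2 cells. The groups did not overlap and were close. The log2 fold change of CDH2 was 0.21 with an SE of 0.03 and an edgeR adjusted p of 0.0232, turning to -0.10 (edgeR adjusted p 0.272) with library totals alone. The call was also lost without untreated replicate 2 (edgeR adjusted p 0.0765), without untreated replicate 3 (0.0724) and without r-CRMP2 replicate 1 (0.0506). Per gene length, N-cadherin was by far the more abundant of the pair in every library, at 12.3 to 14.3 TPM for CDH2 against at most 0.0882 TPM for CDH1. Their ratio within a library was not tested, because CDH1 had under 10 reads.

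The cytoskeletal and matrix markers were the most abundant members and rose under every alternative tried. VIM (chromosome 10, 17270258 to 17279592, plus strand, hg19) was at 1447, 1455 and 1411 CPM in untreated and 2467, 2708 and 2546 CPM in r-CRMP2 cells. Its mean rose from 1438 ± 23.1 to 2574 ± 123 CPM (SD, n = 3 each), a log2 fold change of 0.84 with an SE of 0.04 and an edgeR adjusted p of 1.68e-09. The gap between the groups was many times the spread within them. FN1 (chromosome 2, 216225163 to 216300793, minus strand, hg19) was at 557, 523 and 496 CPM in untreated and 1672, 1573 and 1695 CPM in r-CRMP2 cells. Its mean rose from 525 ± 30.5 to 1647 ± 65.0 CPM (SD, n = 3 each), a log2 fold change of 1.65 with an SE of 0.06 and an edgeR adjusted p of 4.19e-13. FN1 had the largest fold change of the 10 genes, and it stayed past both thresholds with library totals alone (log2 fold change 1.34). Relative to VIM, FN1 was higher in each r-CRMP2 library. There were 2.60, 2.78 and 2.84 VIM reads for each FN1 read in untreated libraries and 1.48, 1.72 and 1.50 in r-CRMP2 libraries. The log2 ratio went from 1.45 ± 0.0681 to 0.644 ± 0.122 (SD, n = 3 each), a difference of -0.81, with p = 0.1 in a two-sided exact permutation test, the smallest p that 3 against 3 libraries allow.

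The FN1 start window is shown because FN1 rose most and because it lacks the letters the EMT factors read: neither CANNTG nor CAGGTG or CACCTG was found in it, and the same held for the window of the listed VIM start. No match says only that these letters are not in this window. The capitals mark TGACGTCA, the full cyclic AMP response element, a palindrome found once here and in 1.65% of the 35114 windows. It was searched because this element of the FN1 promoter is textbook knowledge, and after the E-box search was seen. The window lies on the minus strand of GRCh38.p14 at chr2:215436069-215436318 and is printed in the direction of transcription.
FN1 start window: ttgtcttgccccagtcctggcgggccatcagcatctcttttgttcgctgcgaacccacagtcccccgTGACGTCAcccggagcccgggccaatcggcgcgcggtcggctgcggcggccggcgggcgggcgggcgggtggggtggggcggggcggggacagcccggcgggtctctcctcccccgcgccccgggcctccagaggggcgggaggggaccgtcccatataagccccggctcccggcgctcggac

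**Figure D2:**
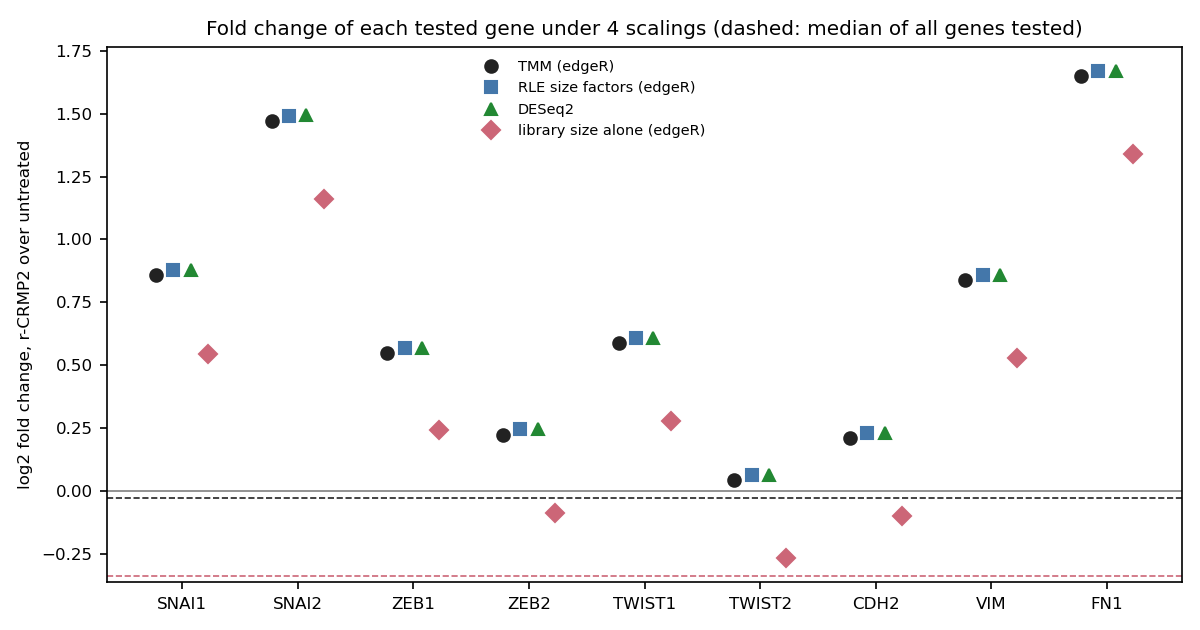
The vertical axis is the log2 fold change of r-CRMP2 over untreated cells for the 9 genes tested, with a symbol for each of 4 scalings and dashed lines at the median of all genes tested (-0.03 with TMM and -0.34 with library totals alone). The values with TMM, RLE size factors and DESeq2 nearly coincide, and library totals alone lower every gene, which takes ZEB2, TWIST2 and CDH2 below 0 and leaves SNAI1, SNAI2, ZEB1, TWIST1, VIM and FN1 above it.

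Per gene length, the order of the members in untreated cells was VIM at 1640 TPM, FN1 at 142, SNAI1 at 37.0, TWIST2 at 29.7, TWIST1 at 28.5, CDH2 at 14.2, ZEB1 at 4.64, SNAI2 at 3.91, ZEB2 at 1.45 and CDH1 at 0.0622. TWIST2 and TWIST1 overlapped between libraries and cannot be ranked, while every other neighbour in this order was separated in all 3 libraries. After r-CRMP2 the mean levels were 2340 TPM for VIM, 356 for FN1, 53.4 for SNAI1, 34.1 for TWIST1, 24.4 for TWIST2, 13.1 for CDH2, 8.65 for SNAI2, 5.44 for ZEB1, 1.35 for ZEB2 and 0.0385 for CDH1. In this second order no neighbours overlapped. SNAI2 and ZEB1 had changed places: the SNAI2 to ZEB1 ratio in TPM was 0.774, 0.904 and 0.856 in untreated and 1.40, 1.98 and 1.52 in r-CRMP2 libraries. The SNAI1 to SNAI2 ratio in TPM was 9.29, 10.0 and 9.13 in untreated and 5.68, 5.91 and 6.96 in r-CRMP2 libraries. Both ratios were chosen after the values were seen and were not tested. TPM, like library totals, carries no TMM factor, so the mean TPM of ZEB2, TWIST2 and CDH2 was lower in r-CRMP2 cells while their TMM-scaled CPM was higher.

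**Figure D3:**
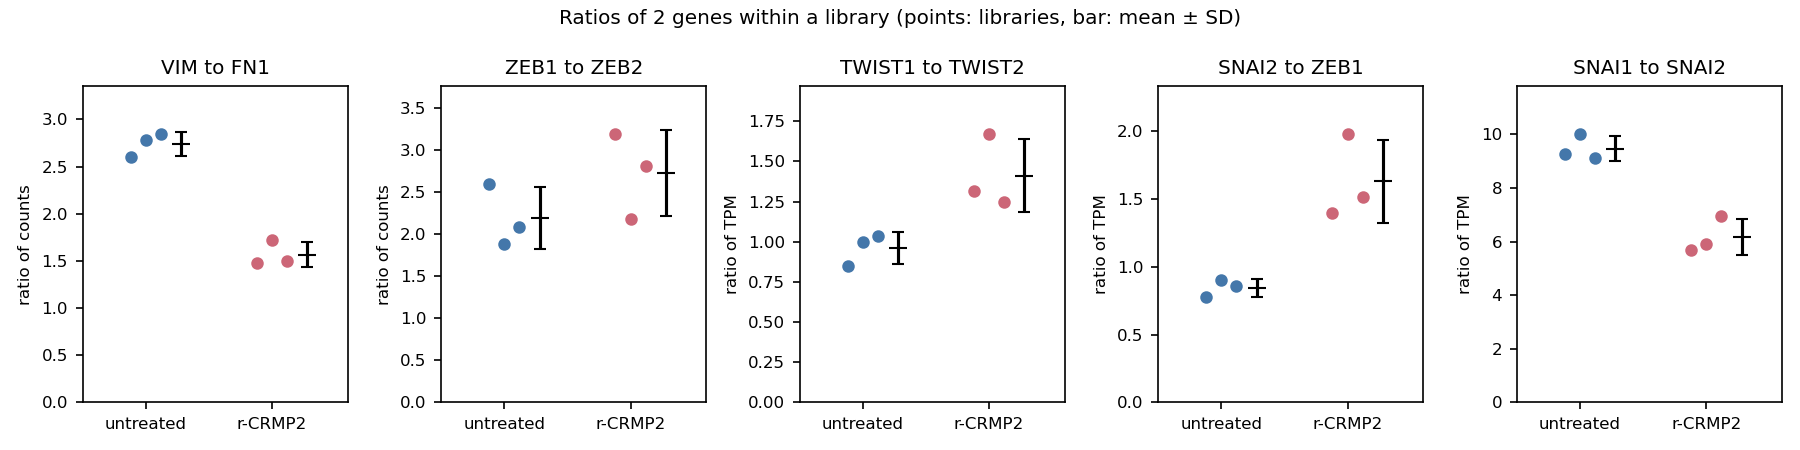
Each panel shows the ratio of 2 genes within a library, from counts for VIM to FN1 and ZEB1 to ZEB2 and from TPM for the other 3, on axes that start at 0, with a point for each library and a bar for the mean ± SD. VIM to FN1 and SNAI1 to SNAI2 are lower in all 3 r-CRMP2 libraries, TWIST1 to TWIST2 and SNAI2 to ZEB1 are higher in all 3, and ZEB1 to ZEB2 overlaps between the groups.

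Rows that share sequence or a name with the members were looked up next. VIM-AS1, listed on the opposite strand, shares 1727 bases with the VIM row (chromosome 10, 17270258 to 17271984, hg19). It was at 414 CPM in untreated and 733 CPM in r-CRMP2 cells, with a log2 fold change of 0.82 and an edgeR adjusted p of 1.42e-09. In every library its reads came to between 27.98% and 29.4% of those of VIM. Whether counting used the strand is not given in the sources used here, so reads of VIM and VIM-AS1 cannot be told apart. ZEB1-AS1 was at 2.80 CPM in untreated and 2.75 CPM in r-CRMP2 cells and did not pass (log2 fold change -0.03, edgeR adjusted p 0.914). ZEB2-AS1 had at most 1 read in a library, and LOC100130992 had none. The 7 listed rows of the miR-200 family and miR-205 (MIR200A, MIR200B, MIR200C, MIR141, MIR429, MIR205 and MIR205HG) had no more than 1 read in a library. These rows are read from polyadenylated RNA, which does not hold mature microRNAs, and none was tested.

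The genes whose pattern over the 6 libraries was closest to that of FN1 and SNAI2, the 2 members past both thresholds, were taken from 12725 genes with a mean of at least 50 reads. Likeness was the root mean square difference of log2 CPM after centring each gene on its own mean. For FN1 they were PGM2L1 (0.0439), TAF9B (0.0542) and SULT4A1 (0.0561). For SNAI2 they were YPEL2 (0.0504), KLHL15 (0.0662) and DUSP10 (0.0691). Their log2 fold changes, between 1.40 and 1.73, are close to those of the member by construction.

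Of all genes tested, 28.2% were higher and 30.1% lower, and the counts of each list below are to be read beside these shares. Among other genes of epithelial adhesion and keratins, 27 of 39 listed could be tested, of which 12 were higher and 5 lower. Their median log2 fold change was 0.22 against -0.03 for all genes tested. With library totals alone, 4 were higher and 9 lower, with a median of -0.09 against -0.34 for all genes tested, so the list median lay above that of all genes under both scalings. None passed both thresholds. The smallest adjusted p belonged to F11R, the tight junction protein JAM-A, at 62.2 CPM in untreated and 117 CPM in r-CRMP2 cells (log2 fold change 0.91, edgeR adjusted p 1.05e-09). PKP2, a desmosome plaque protein, rose by 0.69 and CLDN7, a claudin of tight junctions, by 0.64 on the log2 scale (edgeR adjusted p 2.18e-07 and 8.28e-07). The 5 that fell, named after their values were seen, were TJP1 (ZO-1, the tight junction scaffold), ST14, LLGL2, KRT7 and PKP3, with log2 fold changes of -0.71, -0.78, -0.32, -0.21 and -0.19. The 12 genes not tested, among them OCLN, CLDN3, GRHL2, ESRP1, OVOL1 and OVOL2, were all under 0.5 TPM in untreated cells. Of these, CRB3, named after its values were seen, had 2, 14 and 8 reads in untreated and 1, 1 and 0 reads in r-CRMP2 libraries. Like CDH1, the epithelial genes not tested were close to absent in both groups, while KRT7, KRT8 and KRT18 were among the abundant genes given above.

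The list of mesenchymal cytoskeleton, matrix and adhesion genes held 34 tested genes, of which 19 were higher and 8 lower. Their median log2 fold change was 0.35 against -0.03 for all genes tested. With library totals alone, 13 were higher and 10 lower, with a median of 0.03, against -0.34 for all genes. LOX, an oxidase that crosslinks collagen, was at 110.5, 90.7 and 78.3 CPM in untreated and 330.4, 336 and 346 CPM in r-CRMP2 libraries. Its groups were far apart (log2 fold change 1.86, SE 0.14, edgeR adjusted p 4.57e-12). The related oxidase LOXL2 rose by 1.51 on the log2 scale (edgeR adjusted p 9.61e-13). ITGA5, the alpha subunit of the fibronectin receptor, rose from 441 to 1158 CPM (log2 fold change 1.39, edgeR adjusted p 2.18e-10), beside FN1 itself. The matrix protein tenascin C (TNC) rose by 1.19 on the log2 scale (edgeR adjusted p 2.77e-10). FOXC2, a forkhead factor of mesenchymal tissue, rose from 32.0 to 67.3 CPM (log2 fold change 1.07, edgeR adjusted p 2.09e-09). CTGF, a matricellular protein, went the other way: it was at 51.2, 65.9 and 88.7 CPM in untreated and 16.3, 14.1 and 13.7 CPM in r-CRMP2 libraries (log2 fold change -2.23, SE 0.24, edgeR adjusted p 2.21e-10). Of the 8 genes that were lower, CTGF alone passed both thresholds. The others, named after their values were seen, were POSTN (-0.59), CYR61 (-0.52), COL1A1 (-0.41), PDGFRB (-0.41), TCF4 (-0.38), TPM1 (-0.18) and THBS1 (-0.15).

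Partners, regulators of turnover and relatives of the EMT factors formed the next list, and 38 of its genes were tested: 17 were higher and 12 lower, with a median log2 fold change of -0.04, close to that of all genes. With library totals alone, 7 were higher and 20 lower, with a median of -0.35 against -0.34 for all genes tested. SOX9, a transcription factor that acts with SNAI2 in neural crest and mammary cells, rose from 12.9 to 34.3 CPM (log2 fold change 1.40, edgeR adjusted p 1.35e-10). The 3 treated libraries were at 32.6, 34.2 and 36.0 CPM, all above the untreated 13.7, 11.8 and 13.4. USP27X, a deubiquitinase that stabilizes Snail, fell from 1.84 to 0.607 CPM, on 10 to 52 reads a library (log2 fold change -1.59, edgeR adjusted p 0.000255). BTRC, the ubiquitin ligase subunit that marks Snail for degradation, fell from 19.2 to 8.10 CPM (log2 fold change -1.25, edgeR adjusted p 1.68e-08). Among the genes past both thresholds, a stabilizer and a degrader of the Snail protein were thus both lower in RNA. Other called genes of this list, named after their values were seen, went both ways. COPS2 (log2 fold change 0.80) and FBXO45 (0.64) were higher, and CTDSP1 (-0.77) and PPIL2 (-0.70) were lower. Protein levels were not measured here.

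TGF-beta is the best known inducer of EMT, and its ligands, receptors and SMAD signal carriers formed a list of 18 genes, all tested. Of these, 9 were higher and 6 lower, with a median log2 fold change of 0.15 against -0.03 for all genes tested. With library totals alone, 4 were higher and 8 lower, with a median of -0.16 against -0.34 for all genes tested. TGFB1, the main ligand, was at 252, 241 and 212 CPM in untreated and 468, 504 and 545 CPM in r-CRMP2 libraries (log2 fold change 1.11, SE 0.10, edgeR adjusted p 3.13e-10). SMAD7, the inhibitory SMAD that TGF-beta itself induces, was at 10.5, 12.3 and 12.2 CPM in untreated and 23.6, 30.0 and 29.6 CPM in r-CRMP2 libraries (log2 fold change 1.25, SE 0.13, edgeR adjusted p 7.88e-09). In both genes the groups were far apart. No other gene of this list passed both thresholds. With RLE size factors, the genes called lower were TGFB3 (-0.73), TGFBR2 (-0.67), SMURF2 (-0.53), ACVR1B (-0.26), SMAD4 (-0.26) and LTBP1 (-0.19). Besides TGFB1 and SMAD7, those called higher with RLE were TGFBI (0.99), SMAD3 (0.60), TGFBR1 (0.45), TGIF1 (0.43), TGFBR3 (0.39), SMAD2 (0.28) and SKI (0.27). The genes given with RLE values were named after their values were seen.

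**Figure D4:**
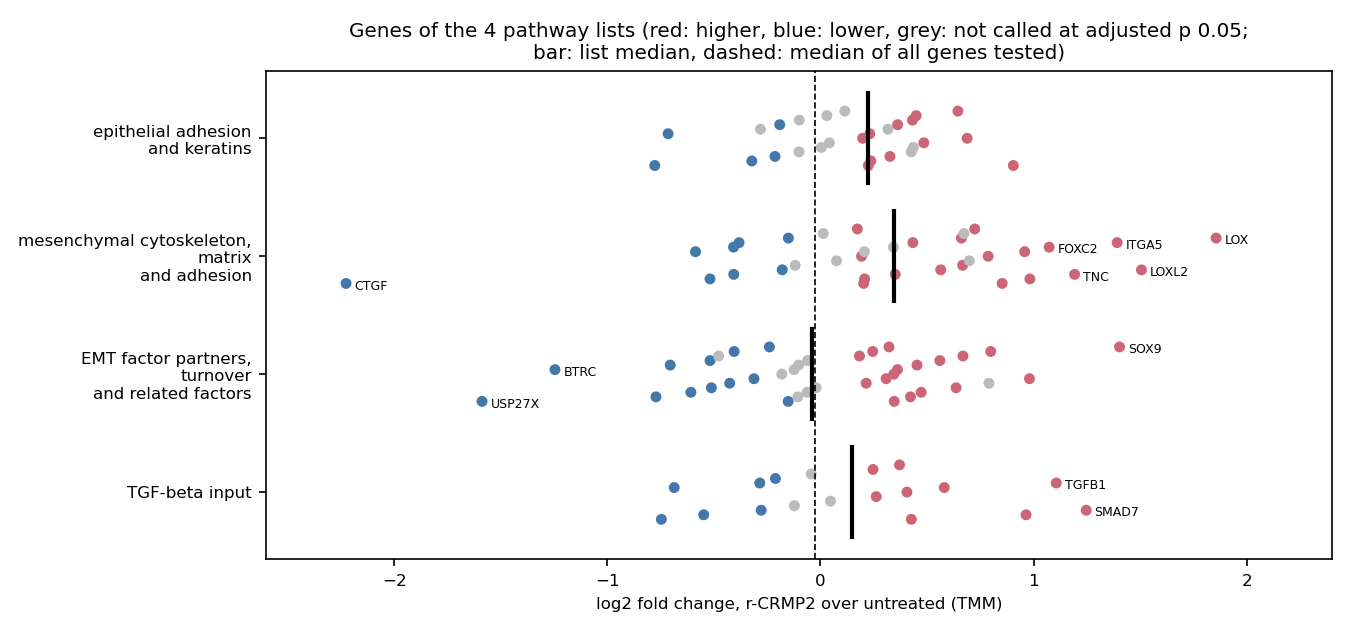
The horizontal axis is the log2 fold change of r-CRMP2 over untreated cells with TMM scaling, and each point is a tested gene of 1 of the 4 lists, red where higher, blue where lower and grey where not called at an adjusted p of 0.05. Black bars mark the list medians (0.22, 0.35, -0.04 and 0.15 from top to bottom), the dashed line is the median of all genes tested (-0.03), and LOX at 1.86 and CTGF at -2.23 are the extremes.

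Because FN1, VIM and the matrix genes are also products of fibroblasts, markers of other cell types were read in the same libraries. Of 12 fibroblast markers 11 were tested, with 5 higher and 3 lower. Their summed level was 516 to 572 TPM in untreated and 479 to 514 TPM in r-CRMP2 libraries. TPM carries no TMM factor, so the sums in this paragraph and the TMM log2 fold changes are not on the same scale. The tested fibroblast markers had a median log2 fold change of 0.21 with TMM, against -0.03 for all genes tested. The part of fibroblast markers in the FN1 and VIM values was not tested. FAP, a defining marker, was at 0.228 TPM in untreated and 0.219 TPM in r-CRMP2 cells. The 3 fibroblast markers with the smallest adjusted p were FBLN1, POSTN and COL1A1, at log2 fold changes of 0.59, -0.59 and -0.41. Of 7 endothelial markers 5 were tested, with none higher and 1 lower (CDH5, log2 fold change -1.96), and their sum was 5.45 to 5.80 TPM in untreated and 1.42 to 2.37 TPM in r-CRMP2 libraries. Of 8 leukocyte markers 3 were tested, with 1 higher (CD68, a lysosomal protein, log2 fold change 1.69) and none lower. Their sum was 32.5 to 38.6 TPM in untreated and 81.6 to 82.5 TPM in r-CRMP2 libraries, most of it CD68, with PTPRC and CD3E under 0.1 TPM.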

How the data were processed

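The authors sequenced polyadenylated RNA of A2780 cells (3 untreated and 3 r-CRMP2 libraries) and deposited whole-number read counts and TPM for 44591 genes per library. The submitters' processing notes name FastQC, HISAT2, DESeq2 and hg19, without versions. The counting tool, annotation and strand setting are not given in the sources used here. The deposited TPM followed from counts and gene lengths within 4.72e-06. Libraries held 21888530 to 25711353 counts.

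Counts were compared with edgeR 4.0.16 (limma 3.58.1, R 4.3.3): TMM, filterByExpr, quasi-likelihood test over 16222 genes, Benjamini-Hochberg threshold 0.05, log2 fold change threshold 1. Each SE reflects how far log2 CPM varied between replicates (prior count 2) and is not the error of the edgeR fold change. Exact intervals are at 95%. Ratios within a library needed 10 reads of both genes in every library for a test. The alternatives were DESeq2 1.42.0, library size alone, RLE size factors, other low-count filters, a test against a fold change of 1.2, a replicate block and leaving out each library. The fit was tested on simulated data.

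The members and lists were chosen with earlier results of these data known. Genes named are the members, in each list those past both thresholds (at most 6 by size of change, otherwise the 3 smallest adjusted p), and for each member past both the 3 nearest profiles. Start windows are from the RefSeq promoter table. Some genes that meet these rules are not reported here and are left out of the list counts.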

Additional observations from a re-analysis of the deposited data

How the results depend on the processing

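SNAI1, SNAI2, TWIST1, VIM and FN1 were called higher in all 13 alternatives and ZEB1 in 12. CDH2 was called in 7 of 13 and ZEB2 in none. Library size alone moved the most: 2171 genes were higher and 8449 lower, 489 and 2553 past both thresholds, and 1 member (TWIST2) was lower. Under it TWIST2 (-0.27) and CDH2 (-0.10) reversed their log2 fold changes. It also gave 4 higher and 9 lower epithelial genes, 7 higher and 20 lower partner genes and 4 higher TGF-beta genes. Asking for at least 10 counts in every library left fewer genes to test and gave 946 lower past both thresholds. Tested against a fold change of 1.2, 2969 genes were higher.

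Leaving out each library in turn gave 3 to 5 lower epithelial genes and 5 to 7 lower mesenchymal genes, with the lowest values without untreated replicate 2 (3 epithelial) and without untreated replicate 3 (5 mesenchymal). The cause was not tested for any of these. The replicate numbers did not pair the samples (correlations of deviations -0.02, 0.0038 and -0.03). With the replicate block, 4456 genes were higher and 4774 lower, against 4574 and 4875 without it, and FN1 stayed at 1.65. The depth limits CDH1 most, with at most 5 reads in a library, and groups of 3 limit every exact permutation test to p = 0.1 or more.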

Other observations

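The cadherin family as a whole was read after the values of CDH1 and CDH2 were seen, as the 23 rows whose symbol is CDH followed by a number. Of these, 11 could be tested: 3 were higher, 2 lower and 6 not called, where 28.2% of all genes tested were higher and 30.1% lower. CDH13, the cadherin that is held to the membrane by a lipid anchor and lacks a cytoplasmic tail, had the largest rise, from 8.88 ± 1.54 to 24.6 ± 1.56 CPM (SD, n = 3 each), with a log2 fold change of 1.46 and an edgeR adjusted p of 2.51e-09. CDH24 rose from 27.1 ± 0.485 to 38.4 ± 1.67 CPM (log2 fold change 0.50, edgeR adjusted p 9.52e-06). CDH5, the cadherin of endothelial junctions, fell from 5.29 ± 0.448 to 1.35 ± 0.212 CPM (log2 fold change -1.96, edgeR adjusted p 8.48e-08). CDH15, a cadherin of muscle cells, fell from 1.17 ± 0.257 to 0.573 ± 0.248 CPM (log2 fold change -1.02, edgeR adjusted p 0.0265). With library totals alone, CDH24 (0.19), CDH13 (1.15), CDH5 (-2.27) and CDH15 (-1.32) kept their direction and CDH2 (-0.10) did not.

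Per gene length, CDH24 and CDH2 were the most abundant cadherins in untreated cells, at 18.6 and 14.2 TPM, followed by CDH13 at 4.99 and CDH5 at 3.11 TPM. After r-CRMP2 the levels were 21.0 TPM for CDH24, 13.1 for CDH2, 11.03 for CDH13 and 0.635 for CDH5. The other 19 rows were all under 1 TPM in both groups.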
